A study of Mus musculus with 4 samples.

Results

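The TIF1 family and the main lysine acetyltransferases were followed at the transcript level in tumor-associated macrophages (TAMs). These were sorted from subcutaneous B16-F10 melanomas, a mouse melanoma line, as cells positive for CD45, CD11b and F4/80. The set was a fixed list of 10 symbols, 4 of the TIF1 family (Trim24, Trim28, Trim33 and Trim66) and 6 acetyltransferases (Crebbp, Ep300, Kat2a, Kat2b, Kat5 and Kat8), taken from 16739 genes with a value in any library. There were 2 libraries from WT mice and 2 from mice with the genotype label Trim24-/-, and whether a library came from 1 mouse or from pooled tumors is not given in the sources used here. All mice were C57BL/6 mice given the tumor cells at 6 to 8 weeks of age, and TAMs were sorted on day 16. The mutant mice carried floxed Trim24 alleles and LysM-Cre, a recombinase driven by the lysozyme M promoter in myeloid cells, so that Trim24 is left intact in other cells of the tumor. The controls were WT littermates, and whether these carried floxed alleles or Cre is not given in the sources used here. The comparison asks whether the relatives of Trim24, or the acetyltransferases it is linked to, differ in abundance where Trim24 is labelled as deleted.

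TIF1 proteins are TRIM family members that join a RING ubiquitin ligase domain to a PHD finger and a bromodomain, the module that binds acetylated lysine, although Trim66 lacks the RING. Trim24 binds nuclear receptors and p53, Trim28 (also KAP1) is the co-repressor that KRAB zinc finger proteins bring to retroelements, and Trim33 acts on Smad4 in TGF-beta signaling. CBP and p300, encoded by Crebbp and Ep300, are closely related co-activators that acetylate histones and transcription factors, and the study places Trim24 upstream of the acetylation of Stat6 by CBP in macrophages. Kat2a (GCN5) and Kat2b (PCAF) are the paired acetyltransferases of the SAGA and ATAC complexes, Kat5 is the catalytic subunit of the TIP60 complex, and Kat8 (MOF) that of the MSL and NSL complexes.

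The libraries held between 4476122 and 5172407 expected counts, and 11302 genes passed the filter on low counts. Trim24 itself did not part the libraries by label, so the mutant samples are named by their label, as libraries labelled Trim24-deficient or of the deficient label. Sex-linked transcripts did follow the label. Xist was at 10.9 and 6.46 CPM (counts scaled to the TMM library size) in WT against 437 and 256 CPM under the deficient label, and all 4 Y-linked genes checked were lower there, so that genotype and sex cannot be told apart, although the study's methods state that sexes were matched. None of the 10 members lies on a sex chromosome, but their differences run along the same split by sex. Of the macrophage markers, 10 of 10 were detected, with a sum of 16700 to 23000 CPM per library. Under the deficient label 7 of them were higher without overlap, against 21.4% of all tested genes. Melanoma markers, led by Tyr, summed to 773 to 813 CPM in WT and to 611 and 804 CPM under the deficient label. Of these, 4 of 7 were lower without overlap, against 23.0% of all tested genes. No macrophage or melanoma marker reached an FDR below 0.05 with over 1.5-fold change by edgeR. T and NK cell markers summed to between 68.5 and 220 CPM, highest in deficient-label replicate 1. Dendritic cell markers summed to between 37.0 and 79.0 CPM, B cell markers to between 46.3 and 55.4 CPM with Pax5 at 0, fibroblast and endothelial markers to between 22.2 and 45.6 CPM, and neutrophil markers to between 89.9 and 253 CPM. In bulk RNA, fewer cells of a type and less RNA per cell cannot be told apart.

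The members were expressed at very different levels per length. In FPKM, which divides by gene length, Trim28 was the most abundant with a mean of 20.2 over the 4 libraries (range 15.34 to 26.05). It was followed by Kat2a at 17.9 (14.96 to 20.01), Kat5 at 14.9 (11.5 to 18.51) and Kat8 at 9.23 (7.87 to 10). Crebbp at 5.41 (3.75 to 8.29), Kat2b at 4.5 (4.26 to 4.63) and Ep300 at 4.34 (2.35 to 5.49) formed a middle group. Trim33 at 1.54 (1.04 to 1.99), Trim24 at 0.505 (0.07 to 1.02) and Trim66 at 0.01 (0 to 0.04) were the lowest. The ranges of Trim28, Kat2a and Kat5 overlapped from neighbour to neighbour, as did those of Kat8, Crebbp, Kat2b and Ep300, although Kat8 was above Crebbp in 4 of 4 libraries. Crebbp was above Kat2b in 2 of 4 libraries, and Kat2b was above Ep300 in 2 of 4. Each of Kat5, Ep300, Trim33 and Trim24 had a range that did not reach that of the next gene down. By mean FPKM, Trim28 stood above 67.4% of the tested genes, Crebbp above 35.2%, Ep300 above 30.2% and Trim24 above 1.49%.

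**Figure D1:**
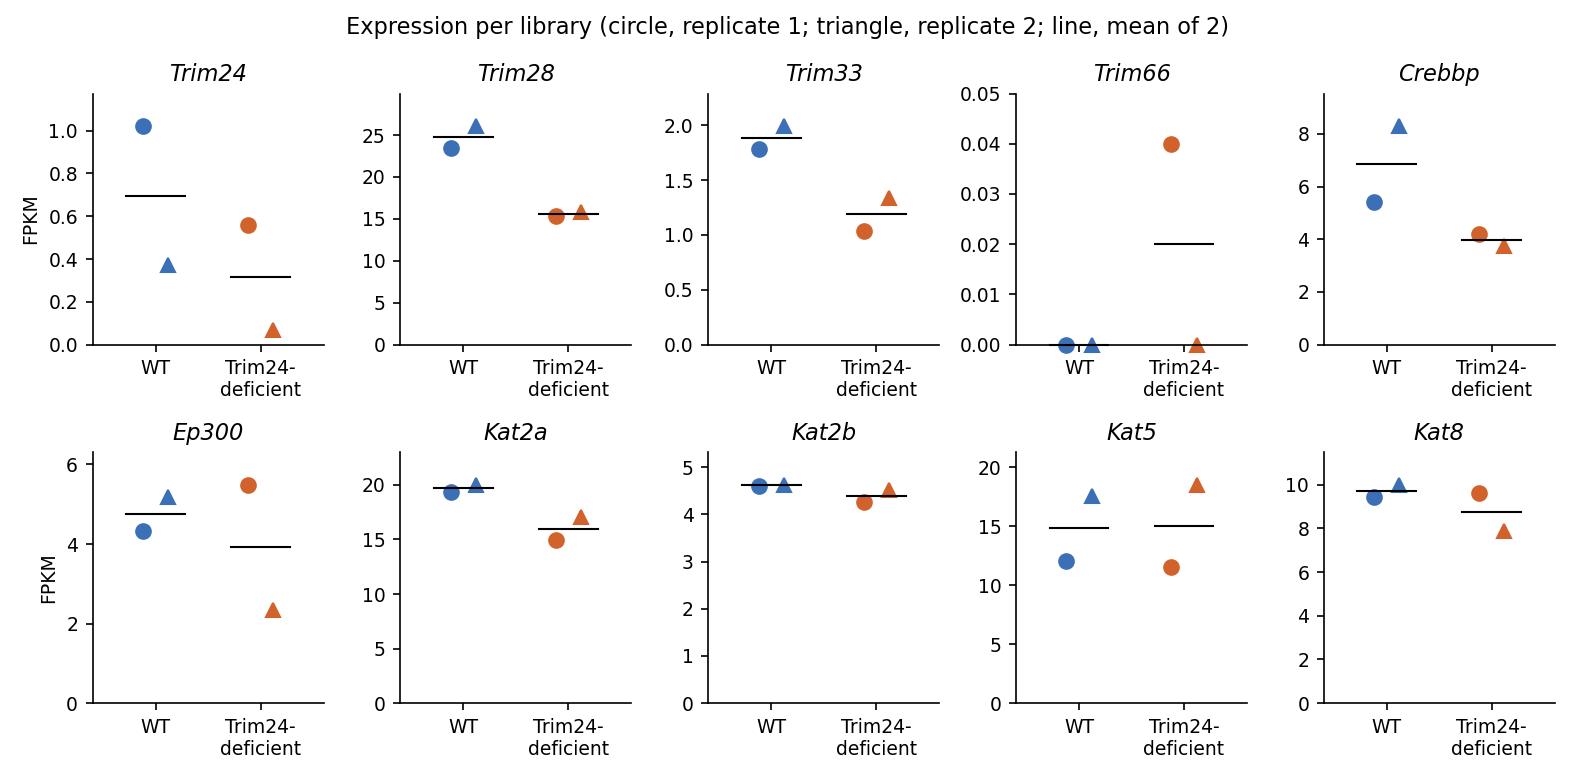
FPKM of the 10 members in each library (vertical axes from 0, each on its own scale), with WT in blue, the Trim24-deficient label in orange, replicate 1 as a circle, replicate 2 as a triangle and the mean of 2 as a line. Trim28, Trim33, Crebbp, Kat2a and, by a small margin, Kat2b have both orange points below both blue points, whereas Ep300, Kat5, Kat8 and Trim24 overlap.

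Trim24 (Entrez 21848, chr6:37870811-37966296 of GRCm38) was counted as a sum over 3 RefSeq transcripts. In GENCODE these begin at 2 places, of which the second lies within the gene at position 37900487. The bases before both starts are shown because the deposited counts pool transcripts from either start, and those before the start of Trim28 because this relative differed most regularly between the labels. The sequences are from RefSeq (GRCm38), in a table of promoters that matched 9 of the 10 members. The promoter of Trim33 was not analysed here. Capitals mark the GC box GGGCGG or its reverse complement.
Trim24, first start, chr6:37870561-37870810, plus strand: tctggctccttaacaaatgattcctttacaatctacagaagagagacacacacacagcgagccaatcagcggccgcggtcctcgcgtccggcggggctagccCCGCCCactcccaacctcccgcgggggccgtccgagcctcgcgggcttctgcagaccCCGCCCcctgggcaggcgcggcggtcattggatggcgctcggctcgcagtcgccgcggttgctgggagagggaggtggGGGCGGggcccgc
Trim24, internal start, chr6:37900237-37900486, plus strand: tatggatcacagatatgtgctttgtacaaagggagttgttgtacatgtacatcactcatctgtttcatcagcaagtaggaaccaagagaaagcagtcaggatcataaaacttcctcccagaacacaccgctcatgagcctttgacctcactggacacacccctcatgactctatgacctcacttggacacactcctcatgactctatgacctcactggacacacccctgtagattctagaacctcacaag
Trim28, chr7:13023902-13024151, plus strand: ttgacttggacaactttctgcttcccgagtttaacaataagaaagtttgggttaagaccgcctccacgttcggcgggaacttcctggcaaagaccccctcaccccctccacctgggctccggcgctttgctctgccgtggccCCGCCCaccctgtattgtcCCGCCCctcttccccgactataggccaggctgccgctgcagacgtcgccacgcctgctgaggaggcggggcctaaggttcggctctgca
The 250 bases before the first start of Trim24 held 3 GC boxes and were 69.6% G and C, those before its internal start held 0 at 46.0%, and those before Trim28 held 2 at 62.0%. Over all 32851 starts in the table, 32.7% held a GC box on either strand in the same window, and the median G and C content was 52.4%. The palindrome TTC and GAA with 4 bases between, of the type that Stat6 binds, was in 5.85% of all windows and in 1 of the 13 windows of the members, that of Trim66. The study reports a motif of this type further upstream, in the human TRIM24 promoter, with binding of Stat6 there. The windows scanned here hold only the mouse bases next to each start. They do not reach that far, so whether mouse Trim24 has such a motif further upstream was not tested. The ETS core CCGGAAG, on either strand, was in 6.91% of all windows and in 0 of the 13. A match of letters is a description and not a site.

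Few Trim24 reads were counted in any library. The rounded counts were 29 in WT replicate 1 (95% Poisson interval 19.4 to 41.6), 10 in WT replicate 2 (4.8 to 18.4), 16 in deficient-label replicate 1 (9.15 to 26.0) and 2 in replicate 2 of that label (0.242 to 7.22). These intervals cover counting error only. Within each label replicate 1 was the higher library, and deficient-label replicate 1 lay between the WT libraries. The log2 fold change of -1.06 had a 95% interval from -2.91 to 0.79, that is from 0.133 to 1.73 times the WT level. It was -0.12 without WT replicate 1, -0.22 without deficient-label replicate 2 and -3.19 without replicate 1 of that label, so single libraries set its size. The gene length listed for Trim24, a mean over its transcripts weighted by their estimated abundance, was 5771 bases in 3 libraries and 6089 in WT replicate 2, which marks another choice of transcript among its 10 reads. The longest GENCODE transcript of Trim24 has 4042 bases, so its level per length and its share of the family rest on a longer model. Values are per gene, and reads of the floxed exons were not told apart from the rest.

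As a share of the summed FPKM of the 4 TIF1 genes, Trim24 made up 3.89% and 1.30% in WT replicates 1 and 2. Under the deficient label it made up 3.30% and 0.405%. The mean shares of 2.60% ± 1.83 and 1.85% ± 2.05 (SD, n = 2 each) overlapped (exact two-sided permutation test, p = 0.667). Trim24 transcript was therefore a minor part of the summed FPKM of the family in every library, under either label. Trim66 was lower still in 4 of 4 libraries. Over the 4 libraries, 8633 genes with a symbol and a mean of at least 10 CPM were ranked by Pearson's r of log2 CPM with Trim24, and the 3 highest were Ybx1 (0.9996), Camsap1 (0.9991) and Gtpbp10 (0.9981). With only 4 libraries 230 genes exceeded an r of 0.95, so this likeness is a description. Ybx1, a cold shock domain protein that binds RNA and DNA, was at 250 and 182 CPM in WT against 214 and 128 CPM under the deficient label.

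Neither of the 2 relatives of Trim24 that could be tested was higher under the deficient label. Trim28 (Entrez 21849, chr7:13024152-13031035) was at 74.9 and 79.8 CPM in the WT pair. Its CPM was 52.8 and 55.5 under the deficient label, below both WT libraries. The log2 fold change was -0.51 (standard error, SE, 0.18, 95% interval -0.93 to -0.10), with an unadjusted p = 0.0196 and an adjusted p = 0.302 over all 11302 genes by edgeR, so the difference did not pass. The interval ran from 0.526 to 0.931 times the WT level and included no rise. With each library left out in turn the change stayed between -0.55 and -0.47, the narrowest range of the TIF1 genes. Correcting for gene length left it at -0.50.

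Trim33 (Entrez 94093, chr3:103279293-103358775) was at 15.5 and 16.7 CPM in WT. Under the deficient label it was at 9.8 and 12.7 CPM, again below both WT libraries. Its log2 fold change was -0.51 (SE 0.29, 95% interval -1.17 to 0.14, adjusted p = 0.506 by edgeR). The upper end of the interval corresponds to 1.10 times the WT level. Trim33 is long, at 8819 bases in the tables, and longer genes tended to be lower under the deficient label, with a Spearman's rho of -0.249 between change and length across all tested genes. With that trend removed from each library, the Trim33 change was -0.26 (adjusted p = 0.771). Trim66 (Entrez 330627, chr7:109449006-109508134) had 0 counts in 3 libraries and 2 counts in deficient-label replicate 1. With a floor of 3 counts, a count of 0 allows up to 0.606 to 0.625 CPM in these 3 libraries, and the gene was not tested.

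The summed FPKM of Trim28, Trim33 and Trim66 was 25.2 and 28 in the WT libraries and 16.4 and 17.2 under the deficient label. The means were 26.6 ± 2.01 and 16.8 ± 0.566 (SD, n = 2 each), with no overlap. An exact two-sided permutation test gave p = 0.333, the smallest p that 2 against 2 libraries allow. In TMM-scaled CPM the sums were 93.5 ± 4.25 and 65.6 ± 3.66. FPKM values are scaled to library totals, under which the median change of all genes was -0.15 against -0.01 with TMM, so that part of the FPKM difference is shared by genes at large. Proliferation markers were lower under the same label. Of 10 such markers, 7 were lower without overlap, against 23.0% of all tested genes. Mki67 fell from 142 and 181 CPM to 71.6 and 71.1 CPM (adjusted p = 0.0453 by edgeR), and their sum was 1550 and 1530 CPM in WT against 1090 and 1250 CPM. Their part in the lower Trim28 and Trim33 values was not tested.

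**Figure D2:**
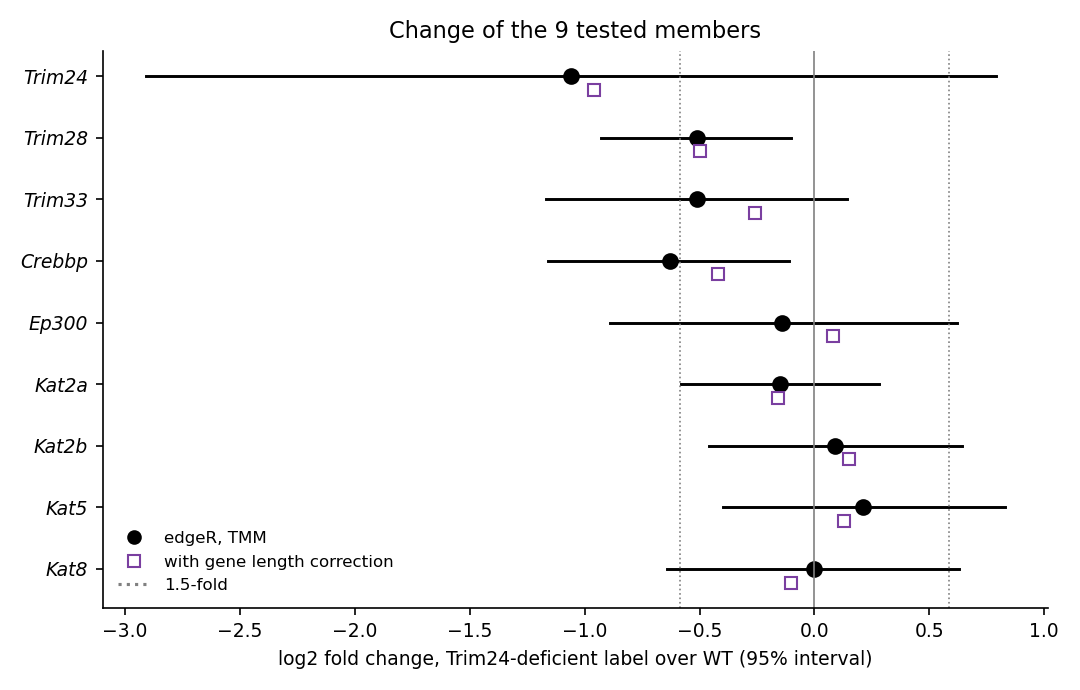
Log2 fold change of the 9 tested members between the Trim24-deficient label and WT (horizontal axis), with the 95% interval as a line, the edgeR estimate as a black point and the estimate after gene length correction as an open square. Dotted lines mark a 1.5-fold change, and the intervals of Trim28 (-0.93 to -0.10) and Crebbp (-1.16 to -0.11) are the 2 that lie below 0.

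Crebbp, which encodes CBP, was lower without overlap under the deficient label, whereas Ep300, which encodes p300, overlapped. The ratio of Crebbp to Ep300, given below, did not separate the labels. Crebbp (Entrez 12914, chr16:4081328-4213997) was at 40.2 and 59.0 CPM in WT. Under the deficient label it was at 33.4 and 30.4 CPM, below both WT libraries. The log2 fold change of -0.63 (SE 0.24, 95% interval -1.16 to -0.11) had an unadjusted p = 0.0236 and an adjusted p = 0.322 by edgeR. Without WT replicate 2, its highest library, the change was -0.33, and with gene length correction it was -0.42 (adjusted p = 0.47). The length given for Crebbp in the tables is 7507 bases, whereas its longest GENCODE transcript has 10820, so its level per length rests on a shorter model.

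Ep300 (Entrez 328572, chr15:81585397-81652077) was at 37.6 and 42.9 CPM in WT. It was at 51.1 CPM in deficient-label replicate 1 and at 22.2 CPM in replicate 2, which made these the highest and the lowest of the 4 libraries. The log2 fold change was -0.14 (95% interval -0.89 to 0.62, adjusted p = 0.905 by edgeR), and it turned to 0.08 with gene length correction and to 0.35 without replicate 2 of that label. The FPKM ratio of Crebbp to Ep300, which does not depend on library scaling, was 1.25 and 1.6 in the WT libraries. Under the deficient label it was 0.763 and 1.6. The level of the ratio rests on the gene lengths in the tables, which were the same in all 4 libraries, so that it can be compared between libraries but does not say which gene was the more abundant. Replicate 1 of the deficient label had the lowest ratio, the labels were not separated (p = 0.667, exact permutation of log2 ratios, two-sided), and without that library the difference changed sign, from -0.356 to 0.176 on the log2 scale.

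**Figure D3:**
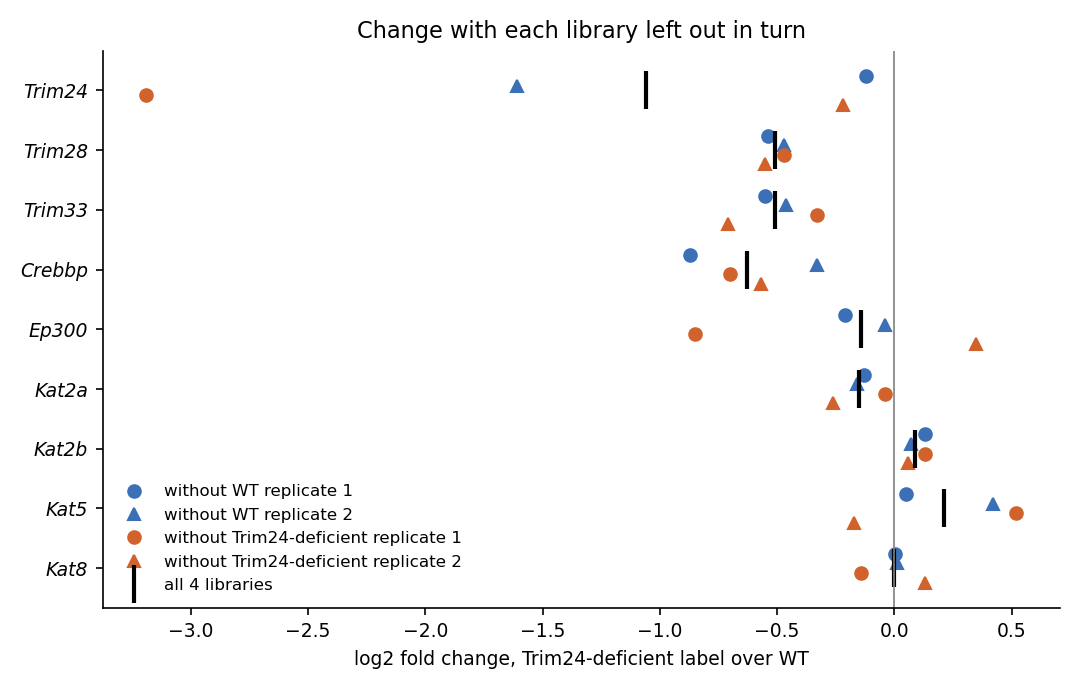
Log2 fold change of each tested member (horizontal axis) with all 4 libraries (black bar) and with each library left out in turn (WT in blue, Trim24-deficient label in orange, circle without replicate 1, triangle without replicate 2). Trim28 stays between -0.55 and -0.47, whereas Trim24 spreads from -3.19 to -0.12 and Ep300 from -0.85 to 0.35.

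The remaining acetyltransferases differed little between the labels. Kat2a (Entrez 14534, chr11:100704746-100712465) was at 58.0 and 57.3 CPM in WT against 48.1 and 55.7 CPM under the deficient label (log2 fold change -0.15, 95% interval -0.58 to 0.28). Its relative Kat2b (Entrez 18519, chr17:53566971-53672720) was at 18.6 and 17.9 CPM against 19 and 19.9 CPM (log2 fold change 0.09, 95% interval -0.46 to 0.64). Both pairs of groups were apart, in opposite directions, by less than 1.5-fold. The direction of Kat2b did not hold under library totals, where its change was -0.06, nor in FPKM, where it was at 4.6 and 4.63 in WT against 4.26 and 4.52. Both differences had adjusted p-values above the threshold, at 0.797 for Kat2a and 0.913 for Kat2b (edgeR).

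Kat5 (Entrez 81601, chr19:5603014-5610237) was at 23.6 and 31.0 CPM in WT against 24.3 and 39.0 CPM under the deficient label. In both labels replicate 2 was the higher, and the log2 fold change of 0.21 had a 95% interval from -0.40 to 0.83. Kat5 was counted over 5 transcripts, and its abundance-weighted length was 2002.35 and 1894.09 bases in the WT libraries and 2010.47 and 1979 bases in the others, so the mix of transcripts overlapped between labels too. Kat8 (Entrez 67773, chr7:127912516-127925837) was at 13.7 and 14.0 CPM against 15.1 and 12.5 CPM, a log2 fold change of -0.0023 with a 95% interval from -0.64 to 0.63. For Kat2b, Kat5 and Kat8 the upper ends of the intervals were 1.56, 1.78 and 1.55 times the WT level, and for Ep300 1.54. A rise of 1.5-fold in these genes thus lies within what these libraries allow, whereas for Kat2a the upper end was 1.21.

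Over the whole set, 0 of the 9 tested members passed a fold change above 1.5 with an FDR below 0.05, against 0.372% of all tested genes (42 of 11302, and 0.0796% for those lower) by edgeR's quasi-likelihood F test. An unadjusted p under 0.05 was reached by 2 of 9, Trim28 and Crebbp, both lower, against 12.2% of all tested genes in either direction and 5.62% for those lower, and by 0 members with DESeq2, against 5.45% of the genes it tested. With the replicate number as a block 0 members were called, against 5.61% of all tested genes. Without deficient-label replicate 1 an unadjusted p under 0.05 was reached by 5, namely Trim24, Trim28, Crebbp, Ep300 and Kat5, against 17.8% of all genes tested in that fit, and without WT replicate 2 by 0, against 4.45%. In CPM, 4 of 9 (Trim28, Trim33, Crebbp and Kat2a) were lower without overlap, against 23.0% of all tested genes, and 1 of 9 (Kat2b) was higher without overlap, against 21.4%, the latter in TMM-scaled CPM only. The median change of the 9 was -0.15 and that of all tested genes -0.01. Members range from 1503 to 9129 bases in the tables. The 3 changes that moved most with the length correction were those of the 3 longest tested members, Trim33, Ep300 and Crebbp.

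**Figure D4:**
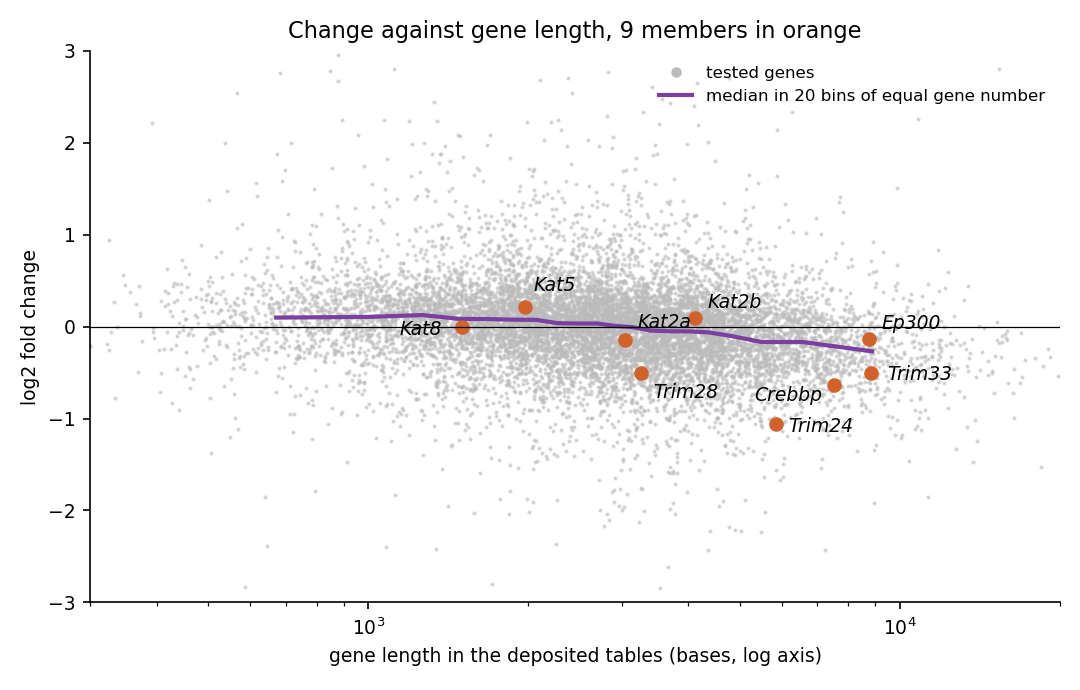
Log2 fold change (vertical axis) against gene length in the deposited tables (horizontal axis, log scale) for all tested genes in grey, 31 of which lie outside the axes, with the 9 tested members in orange and the median in 20 bins of equal gene number in purple. The median falls from 0.10 in the shortest bin to -0.27 in the longest. Trim28, Crebbp, Trim33 and Trim24 lie furthest below the line, and Kat2a and Kat8 lie below it by less.

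Other genes that work with the members were read from 8 lists with 112 genes in all, of which 111 were tested and 0 passed (smallest adjusted p = 0.0659 by edgeR). An unadjusted p under 0.05 was reached by 11 of them (9.91%, against 12.2% of all tested genes), and DESeq2 called 1, against 0.977% of the genes it tested. Lower without overlap were 34 genes (30.6%, against 23.0% of all tested genes) and higher without overlap were 6 (5.41%, against 21.4%). Their median change was -0.14, and -0.04 with gene length correction. The median length was 3849 bases in the lists and 2810 over all tested genes.

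Among 15 TIF1 partners the median change was -0.22 (-0.26 with gene length correction). Of these, 7 were lower and 0 higher without overlap, against 23.0% and 21.4% of all tested genes. Cbx5, the heterochromatin protein HP1-alpha that binds Trim28, was at 88.8 and 98.8 CPM in WT against 57.7 and 58.2 CPM under the deficient label (log2 fold change -0.69, SE 0.18, adjusted p = 0.187 by edgeR). Smad4, a substrate of Trim33, was at 18.4 and 24 CPM against 13.0 and 13.6 CPM (adjusted p = 0.362). The most abundant partner, Cbx3, overlapped at 384 and 465 CPM against 309 and 418 CPM. Among 20 bromodomain readers the median was -0.22 (-0.09 with gene length correction). Of the readers, 8 were lower and 1 higher without overlap, against the same 23.0% and 21.4%. Atad2, a bromodomain ATPase of replicating chromatin, was at 98.7 and 113 CPM against 72.2 and 69.7 CPM (adjusted p = 0.243). Smarca4, the remodeler BRG1 and the most abundant reader, was at 150 and 170 CPM against 126 in both. The proliferation markers given above were also lower, and their part was not tested.

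Of the complexes that carry the members, the MSL and NSL list held the largest single difference. Msl3, the chromodomain subunit that partners Kat8 in the MSL complex, was at 54.1 and 61.5 CPM in WT against 28.3 and 22 CPM under the deficient label, a log2 fold change of -1.20 (SE 0.22, adjusted p = 0.0659 by edgeR). Msl3 is X-linked. Sex and genotype label split these libraries alike, so they cannot be told apart for Msl3 or for autosomal genes. DESeq2 called Msl3. Its adjusted p was 2.42e-05 by edgeR with the replicate number as a block. That fit leaves 1 residual degree of freedom with an infinite prior, so this p-value does not measure the spread of Msl3 itself. Msl1, the autosomal scaffold of the same complex, was at 29.5 and 34 CPM against 21.1 and 17.1 CPM (adjusted p = 0.244), whereas Mcrs1 of the NSL complex overlapped at 66.0 and 70.6 CPM against 58.4 and 95.8 CPM. The scaffold's partner Msl2, a ubiquitin ligase named here after its values were seen, went the other way and was higher without overlap (log2 fold change 0.60). Of the 11 genes in the list 4 were lower and 1 was higher without overlap, against 23.0% and 21.4% of all tested genes. The median of the list was -0.11, and 0.01 with gene length correction.

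The 19 SAGA and ATAC subunits had a median change of -0.02 (0.02 with gene length correction). The 16 TIP60 subunits had one of 0.05 (-0.05 with gene length correction). In each list 4 genes were lower without overlap, against 23.0% of all tested genes. Higher without overlap were 1 of the SAGA and ATAC list and 0 of the TIP60 list, against 21.4%. Trrap, the large scaffold shared by SAGA and TIP60, was at 47.3 and 73.1 CPM against 43.9 and 40.1 CPM (adjusted p = 0.42), and Ep400, the ATPase of the TIP60 complex, at 87.6 and 91.1 CPM against 71.4 and 60.4 CPM (adjusted p = 0.39). With gene length correction their changes were reduced from -0.52 to -0.18 and from -0.44 to -0.16. Supt7l of SAGA was at 41.2 and 41.9 CPM against 35.1 and 26.3 CPM (adjusted p = 0.451). The most abundant subunits, Usp22 of SAGA and Morf4l1 of TIP60, overlapped between the labels.

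Of 14 other acetyltransferases, 5 were lower and 0 higher without overlap, against 23.0% and 21.4% of all tested genes. Their median change was -0.18, and -0.01 with gene length correction. Esco2, which acetylates cohesin during replication, was at 11.3 and 12.5 CPM against 5.32 and 8.22 CPM (adjusted p = 0.405), Taf1, an X-linked subunit of TFIID, was at 29.1 and 37.3 CPM against 28.3 and 24.2 CPM (adjusted p = 0.582), and Hat1, which acetylates new histones, overlapped at 100 and 81.7 CPM against 93.7 and 89.4 CPM. For the opposing enzymes, the 10 tested histone deacetylases had a median change of -0.09 (-0.09 with gene length correction). The 7 sirtuins had one of 0.19 (0.09 with gene length correction). Without overlap, 2 histone deacetylases were lower and 1 higher, and 1 sirtuin was lower and 2 higher. The shares over all tested genes were 23.0% lower and 21.4% higher. The X-linked Hdac8 was at 4.64 and 3.54 CPM against 7.67 and 6.37 CPM (adjusted p = 0.483), and Hdac2 at 24.8 and 21.5 CPM against 21.1 and 11.9 CPM (adjusted p = 0.553), while the most abundant, Hdac1, overlapped. Of the NAD-dependent sirtuins, Sirt7 was at 79.4 and 80.2 CPM against 92.0 and 137 CPM (adjusted p = 0.389), Sirt1 at 8.28 and 9.38 CPM against 5.32 and 5.96 CPM (adjusted p = 0.503), and Sirt2, the most abundant, overlapped at 113 and 118 CPM against 117 and 130 CPM. None of these passed by edgeR's quasi-likelihood F test.

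**Figure D5:**
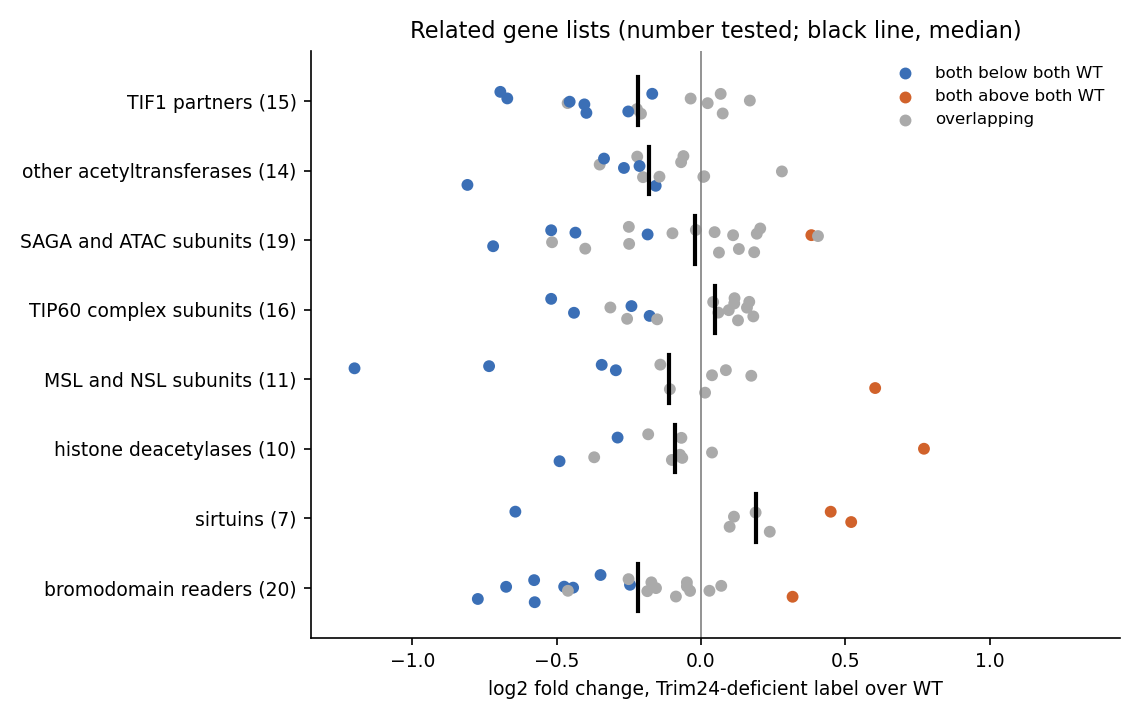
Log2 fold change (horizontal axis) of the tested genes in each of the 8 related lists, 1 point per gene, blue where both libraries labelled Trim24-deficient were below both WT libraries, orange where both were above and grey where they overlapped. List medians (black lines) run from -0.22 for TIF1 partners and bromodomain readers to 0.19 for sirtuins, and Msl3 is the lowest point at -1.20.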

How the data were processed

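RNA-seq libraries of sorted TAMs were compared, 2 from WT mice and 2 labelled Trim24-deficient. Per the labels and the study's methods, the authors aligned the reads with Bowtie (GRCm38/mm10) and estimated gene abundance with RSEM (versions not given in the sources used here), and deposited for each library an expected count per gene, not normalized. The authors also deposited FPKM values, scaled to gene length and to the library total, and a gene length for each library. Only genes above 0 were listed, and a missing gene was set to 0. Of 16739 genes, 16698 matched a symbol by Entrez identifier in the RefSeq table, and 41 did not. Positions are those of the longest GENCODE transcript on GRCm38, except for Trim66, where they span the counted transcripts.

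Expected counts were rounded and tested with edgeR 4.0.16 in R 4.3.3 (filterByExpr, TMM, glmQLFit and glmQLFTest on the genotype label, Benjamini-Hochberg over 11302 genes, with calls at FDR below 0.05 and over 1.5-fold). Standard errors (SE) were obtained from the log2 change and its F statistic (change / sqrt F), and 95% intervals used the t distribution with the total degrees of freedom of the fit. Single values per library were compared by exact permutation. With 2 libraries per group the edgeR p-values rest on the spread shared between genes. A floor of 3 counts corresponds to 0.606 to 0.639 CPM. Gene length correction entered as an offset, per library, a lowess trend (span 0.3) on log length of the deviation of log2 CPM from the gene's mean. Other alternatives were DESeq2 1.42.0, limma 3.58.1 on FPKM after log2 with a pseudocount of 1 or 0.1, other scalings and filters, the replicate number as a block and each library left out. Scripts were tested on simulated data.

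The members, the lists and the tests were chosen with earlier results of these data known. Named beyond the 10 members were, for each related list, called genes or else the 2 with the smallest p and the 1 with the highest FPKM, and the 3 genes most like Trim24. A bromodomain reader that this rule names is not reported here. The labels do not say whether replicates came from separate mice, so the p-values measure only the spread between these libraries, which may be technical.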

Additional observations from a re-analysis of the deposited data

How the results depend on the processing

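Over the 15 alternatives to the 4-library edgeR fit, no member was called where it was tested (8 to 10 members per setting, and Trim24 in 12 of the 15), and Trim28, Trim33, Crebbp and Kat2a kept a change below 0 in all 15. The number of genes called over the whole profile, 42, was 163 with DESeq2, 23 and 20 with limma on log2(FPKM + 1) and log2(FPKM + 0.1), and 0 with limma for all genes (1636 at an unadjusted p under 0.05). It ranged from 25 (without WT replicate 2) to 652 (without Trim24-deficient replicate 2) with 1 library left out, with 66 without WT replicate 1 and 405 without Trim24-deficient replicate 1. In these fits the lone library of a label is assumed to vary like the others. With the replicate number as a block it was 634, and 564 with gene length correction as well. The numbers are shared in name only, with deviations of same-numbered libraries correlated at 0.165, and the block leaves 1 residual degree of freedom with an infinite prior, so its p-values do not measure the spread of each gene. Under the block no member was called, and the adjusted p was 0.166 for Trim28 and 0.108 for Crebbp. Among the related lists DESeq2 called 1 gene (Msl3), the block 2 (Cbx5 and Msl3), and the block with length correction 1 (Msl3), all lower.

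Ep300, Kat2b, Kat5 and Kat8 changed sign in some settings. Ep300 was 0.08 with length correction and 0.01 with the block as well. Kat2b was -0.06 with library totals and with limma on log2(FPKM + 1), with or without its filter, and -0.07 with log2(FPKM + 0.1). Kat8 was 0.02 with DESeq2 and 0.01 without a filter. With 1 library left out the ranges were -0.85 to 0.35 for Ep300, -0.17 to 0.52 for Kat5 and -0.14 to 0.13 for Kat8, whose main value was -0.0023. The difference in the Trim24 share of the TIF1 family, -0.745 percentage points, ranged from -2.19 to 0.702, and that in the log2 ratio of Crebbp to Ep300, -0.356, from -0.888 to 0.176. The cause of these changes was not tested. At 2 to 29 counts per library, depth limits any statement on Trim24, and Trim66 could not be tested.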
